A study of Mus musculus with 7 samples.

Results

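The nuclear-encoded subunits of the mitochondrial respiratory chain and ATP synthase were described across 7 RNA sequencing libraries of mouse ovarian granulosa cells, which line the follicle and nourish the oocyte. Members were chosen by symbol, leaving out 3 pseudogenes, and with earlier results of these data known. They are the genes of the deposited table whose symbol starts with Ndufa, Ndufb, Ndufc, Ndufs, Ndufv, Sdha, Sdhb, Sdhc, Sdhd, Uqcr, Cox4 to Cox8 or Atp5. These were 94 of the 50095 genes. Of them 82 encode subunits, 36 of complex I, 4 of complex II, 8 of complex III, 19 of complex IV and 15 of complex V. The other 12 share the prefixes without being subunits and are described apart. The values were taken to be FPKM, fragment numbers divided by transcript length and library size, although no label names the unit. On that reading levels of different genes can be compared per length.

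The study asked what changes in granulosa cells when Ezh2, the histone methyltransferase of Polycomb repressive complex 2, is deleted. All 7 libraries came from female mice aged 3 weeks that were primed with 5 IU of PMSG, a gonadotropin under which follicles grow, and after 48 h given 5 IU of hCG to induce ovulation. Ezh2flox/+; Cyp19-Cre was the genotype of the 4 libraries titled WT, and Ezh2flox/flox; Cyp19-Cre that of the 3 titled KO. Cre, driven by a promoter of the aromatase gene, was therefore present in both groups, and the WT group had 1 floxed allele. Neither the number of animals behind a library nor the time from hCG to collection is given, so p-values measure only the spread between these libraries, which may be technical. Library WT4 bears the treatment label of the KO group but the title and genotype of WT, and was kept in WT.

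The respiratory chain sits in the inner mitochondrial membrane. Complex I takes electrons from NADH and complex II from succinate, ubiquinone carries them to complex III and cytochrome c to complex IV, which reduces oxygen; complex V uses the resulting proton gradient to make ATP. A few large subunits hold the flavins, iron-sulfur clusters, hemes and catalytic sites, and many small accessory subunits surround them. The mitochondrial genome encodes 13 of the proteins and the nucleus all others. In granulosa cells, mitochondria also house the first step of steroid synthesis, and the cells pass metabolites to the oocyte.

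Nuclear genes of the chain are known for promoter words read by NRF1, by ETS factors of the GABP (NRF2) family and by YY1, so the promoters of the members were searched for such words. RefSeq promoters of 300 bases (250 before and 50 after the start site, GRCm38.p6) were at hand for 78 of the 94 members, and both strands were read. The NRF1 word GCGCANGCG stood in the promoters of 22 members (28.2%), against 15.5% of the 9734 tested genes with an entry and 7.03% of all 27025 genes with one. The ETS word CCGGAAG stood in 19 (24.4%, against 20.3% and 9.93%) and the YY1 word AAGATGGCG in 8 (10.3%, against 3.64% and 1.64%). These shares are descriptions and were not tested. The NRF1 word was spread unevenly over the complexes, with 7 of 14 complex V members, 8 of 32 in complex I, 2 of 5 in complex III, 2 of 3 in complex II and 1 of 14 in complex IV. Among the members called different between the groups, it stood in the promoter of 1 of the 6 with higher level that had an entry, and in that of Sdha, the one with lower level that had an entry. The stretches below are the 100 bases up to the RefSeq start site, 5′ to 3′ on the gene's strand, for 3 members whose values are given further down. Capitals mark the NRF1 word in Sdha (chr13:74350241-74350340, minus strand, 3 copies), the ETS word read on the other strand in Cox6a1 (chr5:115348959-115349058, minus strand), and NRF1 words that overlap on both strands in Atp5g2 (chr15:102671048-102671147, minus strand). A match is no evidence that the factor binds there.
Sdha: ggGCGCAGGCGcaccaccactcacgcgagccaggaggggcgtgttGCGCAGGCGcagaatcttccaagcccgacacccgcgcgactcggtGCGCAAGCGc
Cox6a1: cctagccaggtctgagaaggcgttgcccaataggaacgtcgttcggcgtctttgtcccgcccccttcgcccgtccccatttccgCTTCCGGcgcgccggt
Atp5g2: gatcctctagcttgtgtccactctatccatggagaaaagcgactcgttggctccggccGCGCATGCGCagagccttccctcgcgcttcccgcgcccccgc

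Nrf1, Yy1 and Gabpa, which are among the genes of factors that read these words, were not called different between the groups. Nrf1 was at 13.7, 11.3, 12.7 and 13.5 FPKM in the WT libraries and 11.6, 11.6 and 15.4 in the KO-labelled ones (log2 difference -0.0033, limma adjusted p = 0.988). Yy1 was at 24.7 ± 2.08 and 24.0 ± 2.57 FPKM (adjusted p = 0.774), and Gabpa, the DNA-binding subunit of GABP, at 14.8 ± 1.02 and 12.2 ± 0.991 FPKM (adjusted p = 0.0728), as mean ± SD of 4 and 3 libraries. All 3 KO-labelled values of Gabpa lay below its WT values. These 3 genes were chosen for their promoter words after their values were seen, and the absence of a call does not show that their levels were equal.

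Several measures of the libraries differed between the groups and are given before the members' values. Ezh2 itself did not separate them, at 20.5, 23.4, 25.2 and 25.3 FPKM in WT and 20.03, 17.8 and 26.1 FPKM in the libraries labelled KO (log2 difference -0.15, adjusted p = 0.432). Values per gene cannot show whether the floxed exons were lost, so these levels do not tell whether the deletion took place. Granulosa markers were lower in the libraries labelled KO: 5 of 12 were called lower, their summed level was 4402 to 5969 FPKM in WT and 2934 to 4182 FPKM in the libraries labelled KO, and Cyp19a1, the gene of the Cre driver, fell from 141 ± 71.6 to 33.4 ± 9.46 FPKM. Markers of other cells were higher (7.91% of all tested genes were called higher and 16.7% lower), with 10 of 11 macrophage, 9 of 9 endothelial, 5 of 8 smooth muscle and pericyte and 5 of 5 erythroid genes called higher; of 6 oocyte markers 1 was called higher, and of 4 theca markers 2 higher and 1 lower. The macrophage genes summed to 25.1 to 44.96 FPKM in WT and 68.6 to 145 FPKM in the libraries labelled KO, and the smooth muscle and pericyte genes to 59.0 to 106 FPKM in WT and 132 to 363 FPKM in the libraries labelled KO. The endothelial genes summed to 11.3 to 24.6 FPKM in WT and 44.9 to 64.7 FPKM in the libraries labelled KO, and the erythroid ones to 1051 to 2674 FPKM in WT and 3021 to 4771 FPKM in the libraries labelled KO. No marker was at 0 in all libraries. In bulk samples fewer cells of a type and less RNA per cell cannot be told apart, and the part of these shifts in the values of the respiratory genes was not tested.

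Of the 94 members, 90 were tested, those averaging 1 FPKM or more across the 7 libraries. The lowest WT mean among them was 1.54 FPKM, so none entered the test through the KO-labelled libraries alone. The other 4 are all complex IV isoforms of other tissues: Cox6a2 and Cox8b lay below the limit, and Cox7b2 and Cox8c were listed at 0 in every library. WT means of the tested members ran from 1.54 FPKM for Sdhaf1 to 391 ± 10.9 FPKM for Atp5b, and the order of the members was nearly the same in both groups (Spearman's rho 0.99 over the 94 members, a description of genes measured in the same libraries). All subunits together summed to 5512 ± 287 FPKM in WT and 6536 ± 1193 FPKM in the libraries labelled KO (SD, n = 4 and 3). As a share of all FPKM this was 1.45% ± 0.0571 and 1.54% ± 0.187, and the groups overlapped.

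**Figure D1:**
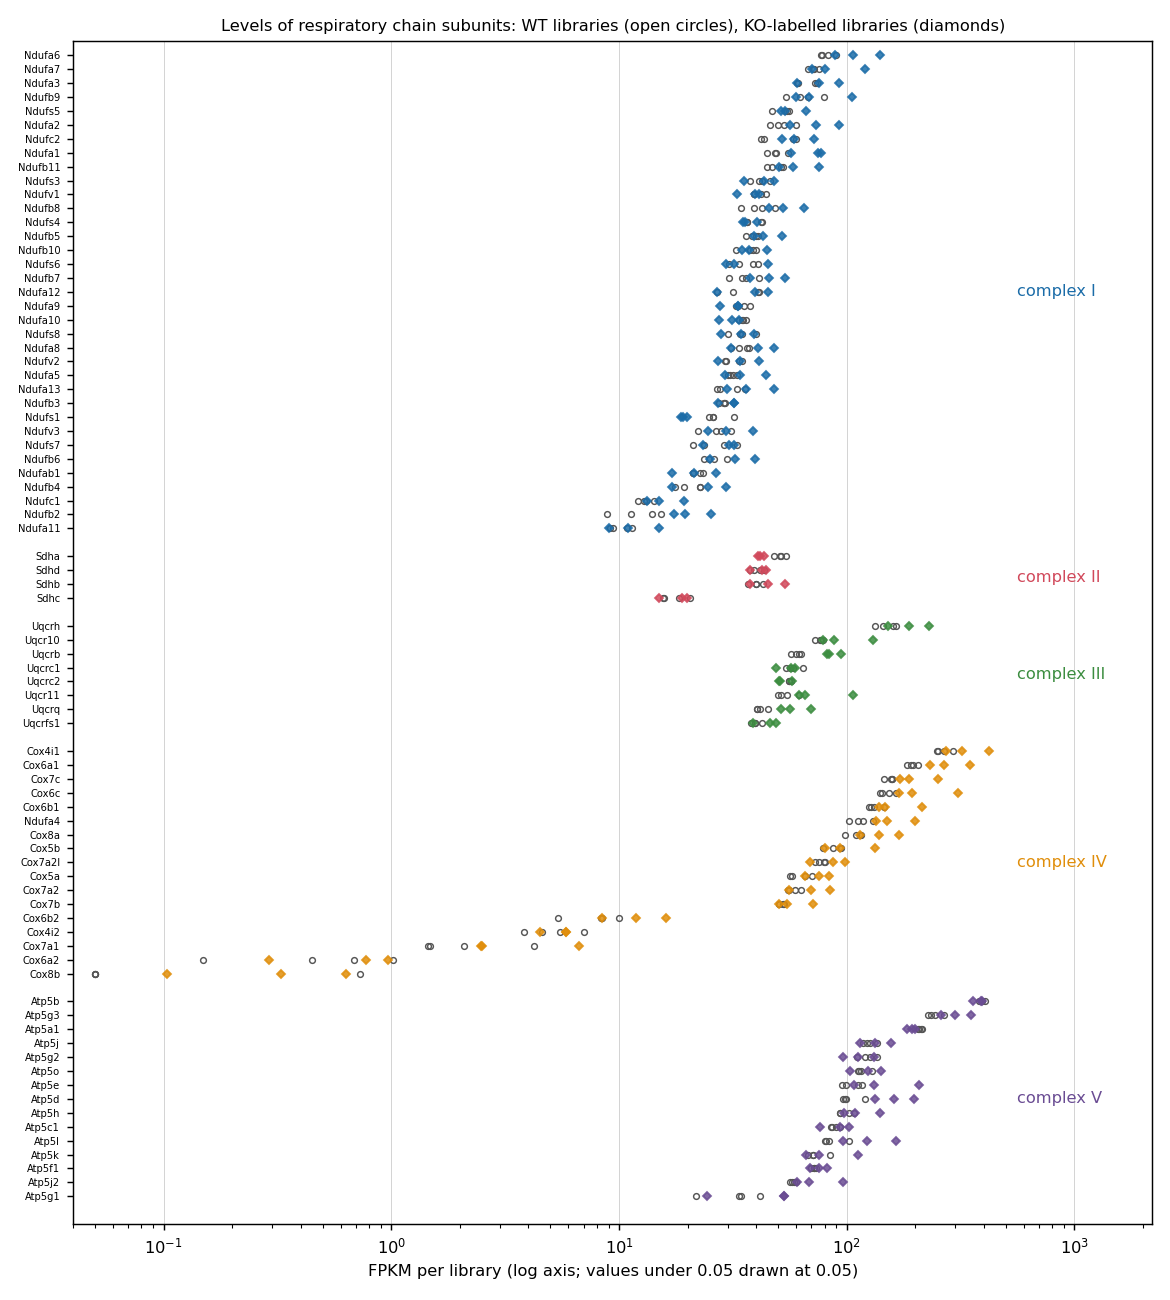
FPKM of the subunits with a value above 0 in any library, leaving out 1 subunit that is not reported here (open circles, 4 WT libraries; diamonds, 3 KO-labelled libraries) on a log axis, ordered by WT mean within each complex, with values listed at 0 drawn at the left edge. Levels run from about 1 FPKM or less for Cox6a2 and Cox8b to 420.5 FPKM for Cox4i1 in KO1, and 1 KO-labelled library lies to the right of the others in most lines.

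The 7 subunits called higher in the KO-labelled libraries were all small, with coding sequences of up to 504 bases, and lay in complexes I, III, IV and V. Most subunits are small: 58 of the 78 tested had under 600 coding bases. Of these 12.1% were called higher, against 17.2% of all tested genes of that length. The 2 subunits called lower were large ones, of complexes I and II. A gene was called at a limma p-value under 0.05 after Benjamini-Hochberg adjustment over all 13850 tested genes. Of the 90 tested members, 11 were called (24.6% of all tested genes were): 9 higher (10.0%, against 7.91% of all tested genes) and 2 lower (2.22%, against 16.7%). Called higher were Ndufb2, Ndufa1, Uqcrb, Uqcrq, Cox6a1, Ndufa4 and Atp5d among subunits, and Sdhaf2 and Ndufa4l2 among the others; called lower were Ndufs1 and Sdha. The share called higher was thus near the background, and the share called lower below it. The median log2 difference of the members was 0.17, against -0.08 over all tested genes, and 72 of 90 (80.0%) lay above 0, against 40.7% of all tested genes. With an equal sum of FPKM per library, which moved the median of all genes to -0.21, the median of the members was 0.02 and 51 of 90 lay above 0. Every KO-labelled library lay above every WT library for 12 members (13.3%, against 11.5% of all tested genes) and below for 6 (6.67%, against 24.8%). Before adjustment, 21 members (23.3%) had a p under 0.05 in the higher and 5 (5.56%) in the lower direction, where 13.6% and 26.4% of all tested genes did.

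**Figure D2:**
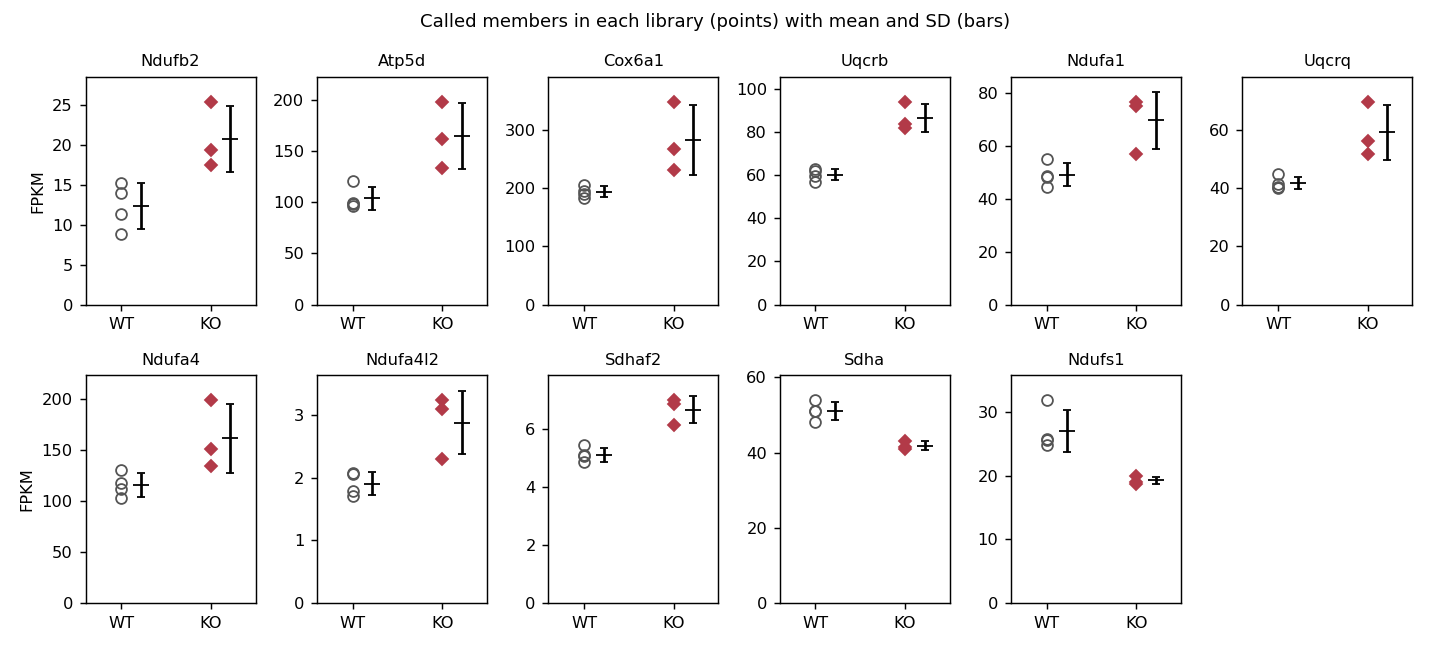
FPKM in each library for the 11 members called different between the groups (open circles, 4 WT libraries; diamonds, 3 KO-labelled libraries; bars, mean and SD; each axis starts at 0). In all 11 the groups do not overlap, and the spread in the KO-labelled group is widest for Cox6a1, Ndufa4 and Atp5d.

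The 3 libraries labelled KO did not stand equally far from WT. The median member lay 0.44 above the WT mean in KO1, 0.16 above it in KO3 and -0.08 from it in KO2, on the log2 scale, while the 4 WT libraries lay between -0.06 and 0.09. KO1 held the highest value of the 7 libraries for 66 of the 90 tested members, whereas it did so for 17.8% of all tested genes. KO2 held the lowest value for 33 and the highest for none, against 24.5% and 6.09% of all tested genes. Relative to the WT range, KO1 was above it for 69 members, KO3 for 49 and KO2 for 14, where 28.0%, 29.6% and 17.6% of all tested genes were. They were below it for 7, 8 and 38 members, where 43.9%, 33.4% and 47.3% of all were, so the counts for KO2 were near the background. The counts of calls changed with these libraries. Without KO1, 2 members were called higher by limma, Atp5d and Uqcrb (3.6% of all tested genes were), and 0 lower (5.76%). At an unadjusted limma p under 0.05 there were 11 in the higher and 6 in the lower direction. The share of all genes at that limit was not computed for this setting, so these counts have no background. Without KO2, 26 were called higher (9.49% of all) and 1 lower (13.4%). The median difference of the members was 0.03 without KO1 and 0.30 without KO2, against -0.08 and -0.06 over all genes.

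**Figure D3:**
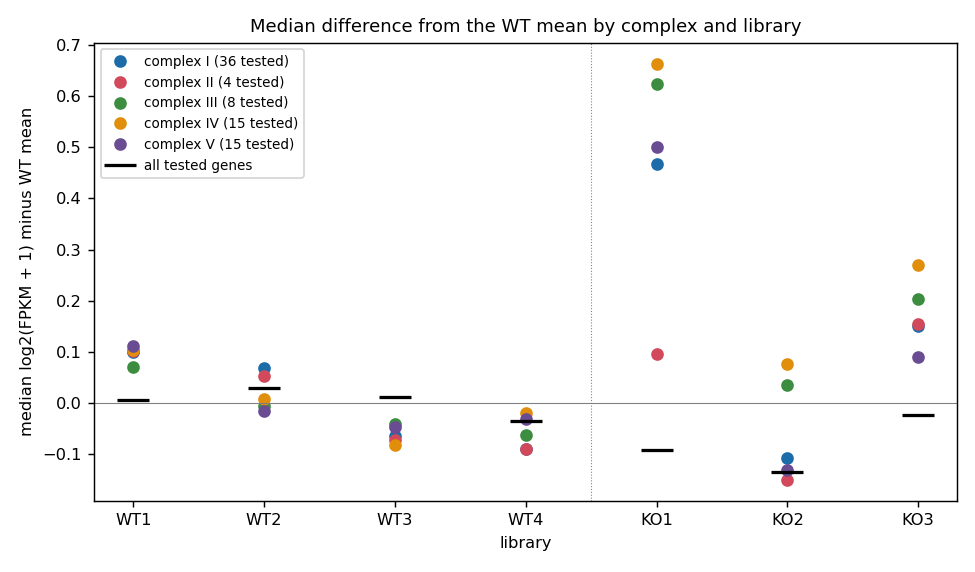
Median over the tested subunits of each complex of log2(FPKM + 1) minus the WT mean, by library, with the median of all tested genes as a black bar. KO1 lies at 0.47 for complex I, 0.62 for complex III, 0.66 for complex IV and 0.50 for complex V, but at 0.09 for complex II, where KO3 lies at 0.15 and WT1 at 0.10. KO3 lies between 0.09 and 0.27 in all complexes, and KO2 lies between -0.15 and 0.08.

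Complex I, the NADH dehydrogenase, had a median log2 difference of 0.17 over its 36 subunits, with 2 called higher (5.56%, against 7.91% of all tested genes) and 1 lower (2.78%, against 16.7%). The median was 0.01 without KO1 and 0.02 with an equal sum of FPKM, against -0.08 and -0.21 over all genes. Its 7 core subunits encoded in the nucleus carry the flavin and the iron-sulfur clusters, and the other 29 are accessory. The core subunits had a median difference of 0.00019, and 4 of 7 lay above 0; the accessory subunits had one of 0.18, and 24 of 29 lay above 0. This grouping by role was made with the values known and is a description.

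Ndufs1, the largest core subunit of complex I and bearer of several iron-sulfur clusters (chr1:63143596-63176833, minus strand), was at 25.9, 32.0, 25.7 and 24.8 FPKM in the WT libraries and at 18.8, 19.96 and 19.1 FPKM in those labelled KO. It was lower in all 3 KO-labelled libraries, which lay close together, and WT2 stood above the other WT libraries. Ndufs1 fell by 0.46 on the log2 scale (SE 0.10, adjusted p = 0.0163), and it was called lower in 15 of 16 alternative analyses, all but the one without KO1 (adjusted p = 0.0567). None of the other 6 core subunits was called. Their differences lay between -0.12 for Ndufv1, the flavin-bearing subunit, and 0.11 for Ndufs7, which holds the last iron-sulfur cluster before ubiquinone; both were named after their values were seen.

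Ndufb2, a small accessory subunit of the membrane arm (chr6:39592574-39603382, plus strand), had 11.3, 14.0, 8.86 and 15.3 FPKM in the WT libraries and 25.5, 17.5 and 19.4 FPKM in the libraries labelled KO. The groups did not overlap, although the WT values themselves spread widely. Its log2 difference of 0.72 ± 0.19 (SE, as for each log2 difference given with ±; adjusted p = 0.0257) was the highest of the 90 tested members, and it was called in 12 of 16 alternatives. Ndufa1, an X-linked accessory subunit needed for assembly of the membrane arm (chrX:37187588-37191163, minus strand), was at 54.97, 48.3, 44.5 and 48.9 FPKM in WT and 76.9, 57.2 and 75.1 FPKM in the KO-labelled libraries. KO1 and KO3 lay well above WT and KO2 just above it, and Ndufa1 rose by 0.49 ± 0.13 on the log2 scale (adjusted p = 0.0244). Ndufa6, an accessory subunit of the LYR family and among the most abundant of the complex, was at 89.6, 77.2, 77.7 and 82.5 FPKM and 139, 89.3 and 107 FPKM, respectively. KO2 lay within the WT range, and the difference of 0.43 was not called (adjusted p = 0.0606). Over the complex, the lowest mean level in WT was 10.2 FPKM, for Ndufa11, and the median was 35.4 FPKM.

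Complex II, the succinate dehydrogenase, is the part of the chain with no subunit from the mitochondrial genome, and its 4 subunits had a median log2 difference of 0.03. Sdha, the flavoprotein that oxidises succinate (chr13:74322254-74350280, minus strand), was at 51.2, 54.0, 51.1 and 48.1 FPKM in WT and 40.9, 41.5 and 43.1 FPKM in the libraries labelled KO. All 3 KO-labelled values lay within a narrow range below WT. Sdha fell by 0.28 on the log2 scale (SE 0.08, adjusted p = 0.0366), and was called in 5 of 16 alternatives, with adjusted p between 0.0116 and 0.114 over them. Sdhb, the iron-sulfur subunit that passes the electrons on, was not called; it was at 43.0, 39.8, 36.9 and 40.01 FPKM and 53.5, 37.5 and 45.3 FPKM, with KO1 and KO3 above the WT range and KO2 inside it (log2 difference 0.17, 95% interval -0.11 to 0.45). The membrane anchors Sdhc and Sdhd, named after their values were seen, had differences of 0.03 and 0.03. The median of complex II was -0.01 without WT4, -0.03 without KO3 and -0.11 with libraries scaled to an equal sum of FPKM, a scaling that moved the median of all genes from -0.08 to -0.21.

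Complex III, the cytochrome bc1 complex, had a median log2 difference of 0.33 over 8 subunits, with 2 called higher (25.0%, against 7.91% of all tested genes) and none lower. The median was 0.15 without KO1 and 0.18 with an equal sum of FPKM, against -0.08 and -0.21 over all genes. Uqcrb, a small subunit on the matrix side that contacts the ubiquinone pocket (chr13:66900617-66905378, minus strand), had 61.8, 59.6, 62.7 and 56.8 FPKM in the WT libraries and 94.2, 81.8 and 83.8 FPKM in the KO-labelled ones. Here KO2 stood nearly as far above WT as KO3. Uqcrb rose by 0.51 ± 0.09 on the log2 scale (adjusted p = 0.00762), and it was called in all 16 alternatives, among them each in which 1 library was left out. Uqcrq, a small membrane-spanning subunit (chr11:53427922-53430831, minus strand), was at 41.6, 44.9, 40.5 and 40.2 FPKM and 69.8, 51.6 and 56.2 FPKM. All KO-labelled values exceeded all WT values, and Uqcrq rose by 0.48 ± 0.11 (adjusted p = 0.0189), called in 12 of 16 alternatives.

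The most abundant subunits of complex III were not called. Uqcrh, the hinge protein that holds cytochrome c1, was at 165, 144, 133 and 159.8 FPKM in WT and 229, 152 and 189 FPKM in the KO-labelled libraries (log2 difference 0.32, adjusted p = 0.137). Uqcr10, a small membrane-spanning subunit, was at 79.0, 77.2, 76.3 and 72.6 FPKM and 130.3, 78.9 and 87.9 FPKM, and KO1 stood far above the other 6 libraries (log2 difference 0.34, adjusted p = 0.139). The large core proteins Uqcrc1 and Uqcrc2 and the Rieske iron-sulfur protein Uqcrfs1, chosen after their values were seen, had differences of -0.08, -0.09 and 0.15, whereas the 5 small subunits lay between 0.32 and 0.51.

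Complex IV, the cytochrome c oxidase, had a median log2 difference of 0.32, and all 15 tested subunits lay above 0, with 2 called higher (13.3%, against 7.91% of all tested genes) and none lower. All 15 had under 600 coding bases. Of all tested genes of that length 17.2% were called higher, and their median difference was 0.16. With an equal sum of FPKM 13 of 15 lay above 0, and the median was 0.17, against -0.21 over all genes. Cox6a1, the form of subunit VIa found outside muscle (chr5:115345642-115348981, minus strand), was at 206, 191, 196 and 183 FPKM in WT and 349, 232 and 268 FPKM in the libraries labelled KO. The KO-labelled values exceeded the WT values without overlap, with KO1 highest, and Cox6a1 rose by 0.52 ± 0.14 on the log2 scale (adjusted p = 0.0273; called in 10 of 16 alternatives). Ndufa4, once counted to complex I and now placed in complex IV (chr6:11900292-11907497, minus strand), was at 130.2, 117, 103 and 112 FPKM and 199, 134 and 151 FPKM. Its lowest KO-labelled value was just above its highest WT value, and Ndufa4 rose by 0.46 ± 0.15 (adjusted p = 0.0461; called in 9 of 16).

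Cox4i1, the most abundant nuclear subunit of complex IV and a regulator of its activity by ATP, was at 294, 266, 252 and 250.03 FPKM in WT and 420.5, 271 and 319.6 FPKM in the KO-labelled libraries. KO2 lay within the WT range, and the difference of 0.32 (95% interval -0.02 to 0.66) was not called. Cox6c and Cox7c, both named after their values were seen, did separate the groups, at 307, 169.7 and 193 and 252, 171 and 187 FPKM in the KO-labelled libraries against at most 165 and 158 FPKM in WT, and were not called (adjusted p = 0.0694 and 0.0715). Without KO1 the median of complex IV was 0.16 and without KO2 0.47, against -0.08 and -0.06 over all genes.

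Complex V, the ATP synthase, had a median log2 difference of 0.17 over 15 subunits, with 1 called higher (6.67%, against 7.91% of all tested genes). The median was 0.0069 without KO1, where 8 of 15 lay above 0, and 0.02 with an equal sum of FPKM. Over all genes it was -0.08 and -0.21. Atp5d, the delta subunit of the central stalk that turns within the catalytic head (chr10:80138632-80145818, plus strand), had 120.2, 98.6, 99.4 and 96.7 FPKM in WT and 198, 134 and 162 FPKM in the KO-labelled libraries. All KO-labelled values lay above WT1, which itself stood apart from the other WT libraries. Atp5d rose by 0.65 ± 0.14 on the log2 scale (adjusted p = 0.0153), and it was called in 15 of 16 alternatives. None of the other 4 subunits of the head and its central stalk was called. Atp5b, the catalytic beta subunit and the member of highest level, was at 404, 387, 379 and 395 FPKM in WT and 391, 357 and 388 FPKM in the libraries labelled KO, a log2 difference of -0.05 with a 95% interval of -0.26 to 0.17. That interval excludes a rise as large as that of Atp5d. The alpha subunit Atp5a1, named after its values were seen, was at 214, 212, 207 and 206 FPKM and 194, 183 and 199 FPKM, below WT in all 3 KO-labelled libraries by a small step (log2 difference -0.13, adjusted p = 0.285). The stalk subunits Atp5c1 and Atp5e, also named after their values were seen, had differences of 0.02 and 0.44, and KO1 stood far above the others for Atp5e, at 208 FPKM.

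The c subunits, which form the rotating ring of the ATP synthase, come from 3 genes. These encode the same mature protein with different import sequences, and the shares of Atp5g2 and Atp5g3 separated the groups. Atp5g3 was at 268, 244, 235 and 228 FPKM in WT and 353, 259.9 and 298 FPKM in the KO-labelled libraries (log2 difference 0.31, adjusted p = 0.0986). Atp5g2 was at 136, 126, 111 and 120.5 FPKM and 131, 96.4 and 112 FPKM (log2 difference -0.13, adjusted p = 0.462). As a share of the 3 genes, Atp5g2 was 31.9%, 30.7%, 29.2% and 31.5% in the WT libraries and 24.5%, 25.3% and 24.3% in the KO-labelled ones. Atp5g3 took 63.0%, 59.2%, 61.9% and 59.6% and 65.7%, 68.3% and 64.3%. Both shares separated the groups without overlap, in opposite directions, with no library standing apart. As Atp5g1 held only 5.12% to 11.5% of the sum, these shares nearly mirror each other and amount to 1 observation. The shares were computed after the values were known and were not tested. Atp5g1, the least abundant, scattered widely in both groups, at 21.8, 41.6, 33.6 and 34.2 FPKM and 52.8, 24.5 and 53.1 FPKM.

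Among the other paired isoforms, the form of most tissues far outweighed the tissue-specific one in both groups. Cox4i2, the isoform known from lung and from hypoxic cells, was at 3.84, 7.02, 5.51 and 4.58 FPKM in WT and 4.50, 5.84 and 5.86 FPKM in the KO-labelled libraries, which is 1.95% ± 0.540 in WT and 1.65% ± 0.539 in the libraries labelled KO of the Cox4i1 and Cox4i2 sum, and the groups overlapped. Cox6b2, the testis isoform, made up 5.69% ± 1.10 in WT and 6.74% ± 0.905 in the libraries labelled KO of the Cox6b1 and Cox6b2 sum, with Cox6b1 at 133 ± 8.97 FPKM in WT and 166 ± 41.1 FPKM in the libraries labelled KO. Cox7a1, the heart and muscle form, was at 1.45, 4.22, 1.47 and 2.08 FPKM and 6.69, 2.51 and 2.49 FPKM. KO1 and WT2 were the highest of their groups, as they were for the summed smooth muscle and pericyte markers, at 363 and 106 FPKM. KO1 was the highest library for 66 of the 90 tested members, so its place is not particular to Cox7a1. The part of smooth muscle cells and pericytes was not tested. Cox7a2 and Cox7a2l, the latter a factor that joins complexes III and IV into supercomplexes, had WT levels of 58.3 ± 3.63 and 76.8 ± 3.68 FPKM. In the libraries labelled KO these were 69.9 ± 14.3 and 84.9 ± 15.0 FPKM, and neither gene was called. Cox7b and Cox8a, whose paralogs Cox7b2 and Cox8c were listed at 0 throughout, were at 51.6 ± 1.39 and 109 ± 7.98 FPKM in WT and 58.7 ± 10.9 and 141 ± 27.5 FPKM in the KO-labelled libraries (adjusted p = 0.323 and 0.0898). The muscle isoforms Cox6a2 and Cox8b did not exceed 1.02 FPKM in any of the 7 libraries.

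The 12 members that are no subunits had a median log2 difference of 0.04, with 2 called higher (16.7%, against 7.91% of all tested genes). Ndufa4l2, a paralog of Ndufa4 that is induced by hypoxia in cultured cells (chr10:127514967-127517154, plus strand), was at 1.71, 1.78, 2.05 and 2.08 FPKM in WT and 3.10, 2.30 and 3.24 FPKM in the KO-labelled libraries. It rose by 0.41 ± 0.13 (adjusted p = 0.0489), close to the threshold, and was called in 4 of 15 alternatives that could test it. Ndufa4l2 is also known as a marker of mouse pericytes, and the summed smooth muscle and pericyte markers given above were higher in all 3 KO-labelled libraries than in WT. Much of that sum came from the smooth muscle gene Acta2, at 47.2 ± 10.9 FPKM in WT and 107 ± 50.3 FPKM in the libraries labelled KO. The sum therefore says little about pericytes. Of the 8 tested markers 5 were called higher, among them Rgs5, while Pdgfrb was not called (limma adjusted p = 0.493). Among markers too low to be tested, Notch3 and Abcc9 had a higher mean in the libraries labelled KO. Cspg4 had a lower one, at 0.899 ± 0.165 FPKM in WT and 0.498 ± 0.139 FPKM in the libraries labelled KO. These markers were named after their values were seen, and their part in the result for Ndufa4l2 was not tested. Sdhaf2, named after its values were seen, helps attach the flavin to Sdha (chr19:10500534-10526142, minus strand); it was at 5.09, 5.42, 4.83 and 5.05 FPKM and 6.85, 6.13 and 6.99 FPKM, and it rose by 0.33 ± 0.09 (adjusted p = 0.0359; called in 7 of 16) while Sdha fell. None of the 7 complex I assembly factors Ndufaf1 to Ndufaf7 was called, with differences from -0.32 to 0.13 and 1 at an unadjusted p under 0.05. Sdhaf1 and Ndufaf2 share 69.6% and 65.6% of their exon bases with a gene on the opposite strand, and no source says that reads were counted by strand, so their values may hold reads of that neighbour. For the 11 called members that share was 6.05% or less for any overlapping gene.

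Other genes that build or feed the chain were counted from lists, to be read against the 7.91% of all tested genes called higher and the 16.7% called lower. Of 8 complex I assembly factors outside the prefixes, 3 were called lower and none higher: Foxred1, Tmem126b and Tmem186, at 8.06 ± 0.898, 4.23 ± 0.745 and 6.97 ± 0.405 FPKM in WT and 5.57 ± 0.969, 2.88 ± 0.176 and 4.73 ± 1.04 FPKM in the libraries labelled KO. Complex III assembly had 1 of 5 called lower, Bcs1l, which inserts the Rieske protein. Complex IV assembly had 3 of 21 called higher, all small proteins: the copper chaperone Cox17 (36.6 ± 4.70 against 60.8 ± 10.8 FPKM, adjusted p = 0.0118), Cox14 and Cox16. Its 1 gene called lower was Lrpprc, a large binding protein of mitochondrial messenger RNA (17.8 ± 0.604 against 14.2 ± 1.07 FPKM, named after its values were seen). Neither complex V assembly factor was called, and none had an unadjusted p under 0.05. Of 11 coenzyme Q genes Coq10b was called higher and Coq4 and Coq7 lower. The mobile carrier cytochrome c (Cycs), cytochrome c1 (Cyc1, a complex III subunit that the symbol prefixes leave out) and 3 genes of the electron transfer flavoprotein pathway had no call, with 1 of 5 at an unadjusted p under 0.05.

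Of 10 tested regulators of mitochondrial gene expression, Pprc1, a coactivator of the PGC-1 family, was the only one called, lower, at 16.6 ± 1.54 against 12.8 ± 0.548 FPKM. Tfam, which packages and transcribes mitochondrial DNA, was at 7.85 ± 0.351 and 6.67 ± 0.622 FPKM (adjusted p = 0.138, named after its values were seen). The family's best known member, Ppargc1a, was at 0.219 FPKM or less in all libraries and was not tested.

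The 13 protein-coding genes of the mitochondrial genome, which encode the other subunits of complexes I, III, IV and V, had a median log2 difference of 0.41, with 2 called higher and none lower. Both encode complex I subunits: mt-Nd2 was at 2604, 2404, 2462 and 2508 FPKM in WT and 4087, 3810.3 and 3569 FPKM in the KO-labelled libraries (adjusted p = 0.014), and mt-Nd4 at 2637, 2592, 2698 and 2746 and 4173, 3606 and 3477 FPKM (adjusted p = 0.0327). Their summed level was 54813 to 57064 FPKM in WT and 68104 to 81698 FPKM in the libraries labelled KO, and KO2 lay above the WT range here, unlike for the sum of the nuclear subunits, where it was at 5464 FPKM against 5254 to 5899 FPKM. Of 11 mitochondrial carriers, channels and chaperones, Hspe1, the small cofactor of the matrix chaperonin, and Slc25a3, which brings in the phosphate for complex V, were called higher. Slc25a3 was at 360.4, 336, 374 and 425 FPKM in WT and 535, 498 and 505 FPKM in the libraries labelled KO, a difference of 0.46 (adjusted p = 0.0204). The 76 mitochondrial ribosomal proteins had a median of 0.02 with 2 called higher, and the 80 cytosolic ribosomal proteins one of 0.30 with 2 called higher, where 7.91% of all tested genes were.

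The differences of the members ran with the length of their coding sequence. Over the 90 tested members Spearman's rho between coding length and log2 difference was -0.71, and over the 11828 tested genes with a coding length it was -0.37; genes share the same 7 libraries, and these values are descriptions. The 58 tested subunits with under 600 coding bases had a median difference of 0.28, with 7 called higher (12.1%) and none lower, where 17.2% of all tested genes of that length were called higher and 3.98% lower. The 20 subunits of 600 bases or more had a median of -0.02, with none called higher and 2 lower, where 6.73% and 19.6% of such genes were. The 7 subunits called higher are thus also short genes, and the 2 subunits called lower, Ndufs1 and Sdha, have coding sequences of 2181 and 1992 bases, the longest of all members. In single libraries the deviation from the WT mean also ran with transcript length, with rho of -0.36 in KO1, -0.15 in KO2 and -0.23 in KO3, and of -0.34 in WT1 against 0.07 to 0.21 in the other WT libraries. Where such a trend was fitted in each library and subtracted, the median of the members went from 0.17 to 0.09 with all genes at 0.00071, and 13 members were called higher (12.1% of all genes) and 3 lower (10.4%), among them 8 of the 9 and 1 of the 2 named above. With the trend fitted on the median instead of the longest transcript of each gene, a choice made after seeing the data, the median of the members was 0.20 and that of complex IV 0.35, with all genes at 0.00078. Measured from the median of all genes, the members lay 0.25 higher without a correction. They lay 0.09 higher with the first correction and 0.20 higher with the second. Both corrections thus lowered this distance, and the amount depended on which transcript length was used. The part of length in the differences between complexes was not tested.

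**Figure D4:**
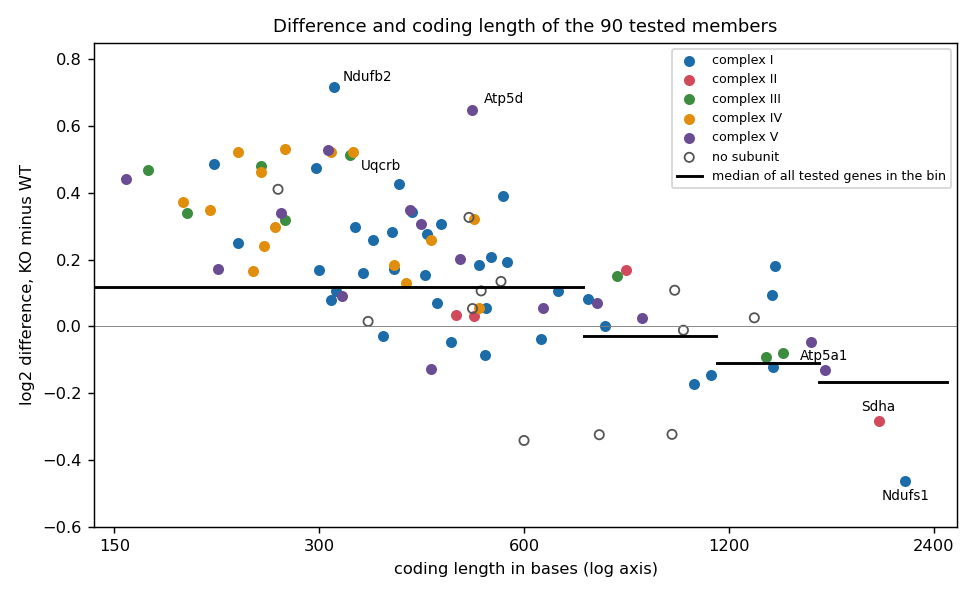
Log2 difference (KO-labelled minus WT) of the 90 tested members against coding length on a log axis, coloured by complex, with open circles for members that are no subunits and black bars for the median of all tested genes in each of 4 ranges of length. Of the 58 subunits under 600 bases 54 lie above 0, and Sdha and Ndufs1 lie lowest at the right.

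The 11 called members kept their direction in all alternative analyses that could test them, while the number called varied. With no filter on low values 1 member was called higher, where 2.24% of the genes then tested were, and with an equal sum of FPKM 8 were called lower, where 28.5% of all were. Atp5d was called higher in 15 of the 16 alternative analyses and Uqcrb in all of them, and Ndufs1 was called lower in 15. Ndufb2 and Uqcrq were called in 12 each, Ndufa1 in 11, Cox6a1 in 10, Ndufa4 in 9, Sdhaf2 in 7, Sdha in 5 and Ndufa4l2 in 4 of 15.

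**Figure D5:**
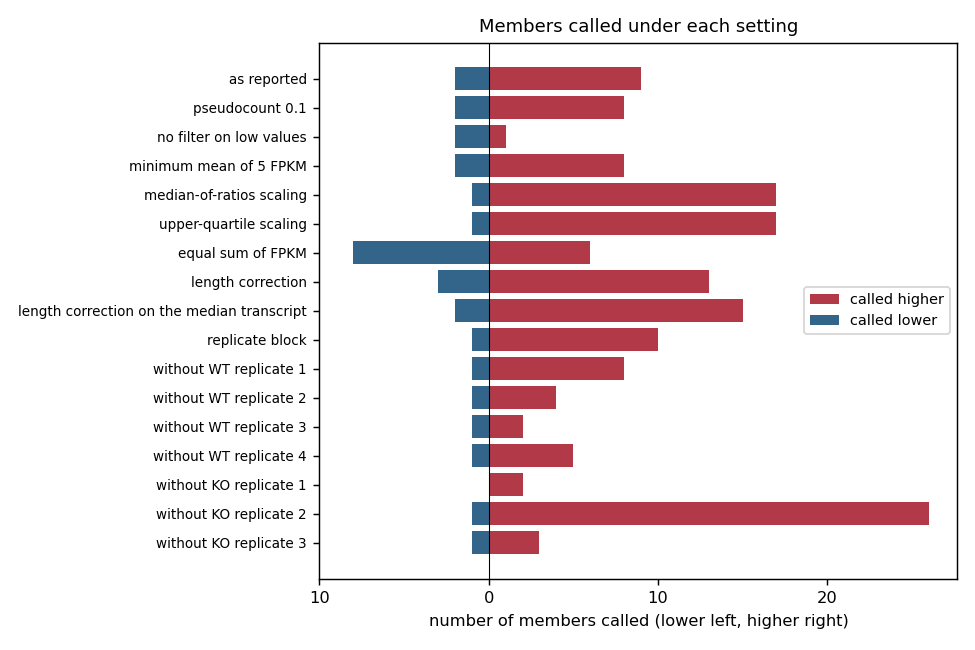
Number of members called higher (bars to the right) and lower (bars to the left) in the libraries labelled KO under each analysis setting. The count of higher calls runs from 1 with no filter on low values to 26 without KO replicate 2, and that of lower calls from 0 without KO replicate 1 to 8 with an equal sum of FPKM.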

How the data were processed

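Poly(A) RNA of 7 libraries was read as pairs of 150 bp, per the labels' protocols. The authors deposited 1 table, taken here to hold FPKM values, with 1 value per gene and library. No header or label names the unit or how it was made, and FPKM was inferred from the values, which are not whole and sum to different totals per library. The submitters' processing notes name HISAT2, HTSeq 0.12.4, FastQC, Trimmomatic, edgeR, DESeq2 and mm10, without their roles. Low values showed no step of 1 fragment, so depth is unknown, reads were not recovered and no count test was run. Every per-sample column was mapped to a sample by its name.

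From the FPKM values, log2(FPKM + 1) of the 13850 genes averaging 1 FPKM or more was modelled by limma 3.58.1 (R 4.3.3, mean-variance trend, no covariate); all adjusted p-values are limma's, and intervals are 95%. On this scale changes of genes near 1 FPKM are understated. On simulated data 79.6% of 191 genes changed by a log2 of 1 were recovered among 13645 genes, and 6.17% of calls were false. The noise was simulated independently for each gene, and no member differed by more than 0.72. In the data 24.6% of tested genes were called, so these rates do not describe the members. Coordinates, coding lengths (longest coding sequence) and exon overlaps came from GENCODE vM21 (GRCm38, mm10), promoters from RefSeq (GRCm38.p6). How reads shared with pseudogenes or near-identical copies were counted is not given.

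The members, lists, roles and tests were chosen with earlier results of these data known. Named were, in each complex, the 2 members of highest mean and up to 3 called members of largest difference in each direction, all genes of the paired isoforms, and of each further list up to 3 called genes, or else the 2 of highest mean; 1 member and 1 of the further lists are not reported here. The alternatives were a pseudocount of 0.1, no filter, a minimum mean of 5 FPKM, 3 other scalings, 2 corrections for transcript length, a block on replicate numbers, and the omission of single libraries.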

Additional observations from a re-analysis of the deposited data

Results flagged for a closer look

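For 3 of the 32 members named by the rule, 1 of the 4 WT libraries stood apart from the others by Dixon's criterion, which chance meets in about 1 of 20 groups. The group labelled KO is too small for it. WT1 was the highest for Atp5d, at 120 FPKM, where the other WT libraries were at 98.6, 99.4 and 96.7 FPKM. WT2 was the highest for Ndufs1, at 32.0 FPKM, against 24.8 to 25.9 FPKM. It was also the highest for Cox8b, at 0.731 FPKM, where the other 3 WT libraries were listed at 0. Ndufs1 was called lower without WT2 and Atp5d higher without WT1.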

How the results depend on the processing

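The median difference of all members and those of complexes I, III, IV and V stayed above 0 in all 16 alternatives, at 0.02 to 0.30 for the members. Against 9 called higher and 2 lower, dropping the filter on low values gave 1 and 2 (2.24% and 3.43% of all genes were called), median-of-ratios scaling 17 and 1 (11.1% and 11.7%), upper-quartile scaling 17 and 1 (11.3% and 10.6%; the 9 kept in both), an equal sum of FPKM 6 and 8 (6.12% and 28.5%), and the length correction 13 and 3 (12.1% and 10.4%). The length correction on the median transcript, chosen after seeing the data, gave 15 and 2 (1592 and 1478 of 13212 genes). The shares over all genes thus moved with the scaling as well. In the replicate block WT4 has no partner and adds nothing to the difference. With this block 10 were called higher (6.65% of all genes), 6 of them shared with the 9, and 1 lower (12.6%). Deviations of same-numbered libraries correlated at 0.19, -0.11 and 0.07. Libraries of unlike number were not compared in this way, so these values cannot tell whether the numbers pair the samples. The cause of the changes in the counts was not tested. For complex II the replicate block gave a median of -0.01 and an equal sum of FPKM one of -0.11, against -0.09 and -0.21 over all genes.

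Leaving out each library in turn gave 2 to 26 members called higher: 8 of 90 without WT1 (8.32% of all genes were), 4 without WT2 (6.03%), 2 without WT3 (4.64%), 5 without WT4 (6.53%), 2 without KO1 (3.6%), 26 without KO2 (9.49%) and 3 without KO3 (4.38%). Apart from that without KO2, these counts were near or below the background. It gave 0 to 1 called lower, against 5.76% to 16.0% of all genes. Medians ran from 0.03 to 0.30 for the members, 0.01 to 0.30 for complex I, -0.03 to 0.12 for complex II, 0.15 to 0.48 for complex III, 0.16 to 0.47 for complex IV and 0.0069 to 0.32 for complex V. Depth is unknown, so what it limits could not be given.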
